A study of Mus musculus with 4 samples.

Results

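The genes described here encode the subunits of the mitochondrial respiratory chain and ATP synthase in thymic epithelial cells (TECs) of mice. They were chosen by name on the arrays: symbols that begin with Nduf, Uqcr or Atp5, or with Cox followed by a digit from 4 to 8, together with Sdha, Sdhb, Sdhc, Sdhd and Cycs. The rule found 131 probes for 89 genes, out of 41174 non-control probes for 28164 gene symbols or unnamed probes, and 85 of the 89 were tested. By role they comprised 7 core subunits and 29 accessory subunits of complex I, 4 complex I assembly factors, 4 genes of complex II, 7 of complex III, cytochrome c, 11 genes of complex IV, 7 tissue isoforms of complex IV, 5 genes of the F1 part and 10 of the Fo part and stalk of complex V, and 4 genes whose names match but which are not subunits (Cox7a2l, Dmac2, Dmac2l and Emc8). Some carried older names on the arrays (Atp5f1 for Atp5pb, Uqcr for Uqcr11, Cox4nb for Emc8, Atp5sl for Dmac2, Atp5s for Dmac2l).

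Both groups were mice of the K14-CreERT2 line, in which the keratin 14 promoter drives a recombinase that tamoxifen activates, so deletion is limited to cells that use this promoter. Meis1-CKO mice had both Meis1 alleles floxed, and control mice, labelled WT, had 1 floxed and 1 normal allele. Mice of both groups were injected at 3 weeks of age with 1 mg of tamoxifen a day for 3 days, and CD45- EpCAM+ cells were sorted 4 days later. Each group had 2 pools of 6 mice, from 2 independent experiments, and each pool was read on 1 single-colour array after amplification from 10 ng of RNA. Control 1 and Meis1-CKO 1 shared 1 slide (slide pair 1), and control 2 and Meis1-CKO 2 shared the other (slide pair 2). The comparison asks how gene expression in TECs differs once Meis1, a homeobox transcription factor, has been deleted.

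The respiratory chain lies in the inner mitochondrial membrane. Complexes I and II pass electrons from NADH and succinate to ubiquinone, complex III hands them on to cytochrome c, and complex IV reduces oxygen. Complexes I, III and IV pump protons, and complex V makes ATP from the return flow. Most subunits are encoded in the nucleus, the genes described here among them, and a smaller set in the mitochondrial genome. A few complex IV subunits have paired isoforms, one used in most tissues and another in striated muscle, lung or testis.

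Levels are log2 signals relative to the 75th percentile of the array, so 0 is that percentile, and a difference is Meis1-CKO minus control. Values for 4 arrays are given in the order control 1, control 2, Meis1-CKO 1, Meis1-CKO 2. Between 58.6% and 63.6% of probe spots on each array were well above background, and none was saturated. Meis1-CKO 2 stood apart, with correlations of 0.856 to 0.884 with the other arrays over 16813 features (a gene, or a probe without a gene symbol), against 0.936 to 0.943 among the other three. All 7 TEC markers examined were well above background on all 4 arrays. Of these, 5 read lower in Meis1-CKO in slide pair 1 (median -0.17) and 6 in slide pair 2 (median -0.71). Foxn1 read 1.02, 1.21, 0.85 and -0.69 and Psmb11 read 3.13, 2.14, 2.53 and -1.19, both lowest in Meis1-CKO 2. Cd74, the brightest of the 7, was highest in Meis1-CKO 2, at 8.08 against 7.71 to 7.75 on the other arrays. The summed level of the 7 was 8.77 in control 1 and 8.49 in Meis1-CKO 2, with Cd74 taking the largest part. The leukocyte marker Ptprc read 1.44, 1.19, -0.75 and 5.55, so it was high in Meis1-CKO 2 and low in Meis1-CKO 1. The summed level of 10 thymocyte markers was 5.66, 4.23, 2.62 and 5.34. Dntt, at 5.13, 3.50, 1.73 and 3.49, took the largest part of that sum in the controls. Of the 10 markers, 9 read lower in Meis1-CKO in slide pair 1 (median -2.30) and 2 in slide pair 2 (median 1.35). Myeloid and dendritic markers had a summed level of 4.62, 5.02, 4.85 and 6.38, highest in Meis1-CKO 2, where Tyrobp read 4.89 against 0.10 to 0.26 on the other arrays. The part of such cells in the results was not tested. Meis1 itself read -0.12, -0.91, -0.44 and -2.08 on 1 probe, with overlapping groups. Its other probe read -3.19, -3.23, -3.77 and -4.74 and was well above background on the control arrays only. The deleted exons are not given in the sources used here, so neither probe checks the deletion. In such bulk samples, fewer cells of a type and less RNA per cell cannot be told apart.

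Transcripts of the respiratory chain differed little between Meis1-CKO and control TECs, and no gene among them passed the test. Of the 85 tested, 0 had a limma adjusted p (Benjamini-Hochberg) under 0.05, as did 0% of all 16813 features, and 0 had an unadjusted p under 0.05 where 2.77% of all features (466) did. The median log2 difference over the 85 genes was -0.12 against -0.05 over all features, and single genes ranged from -1.14 (Cox6a2) to 0.30 (Ndufa10). The standard error of a difference had a median of 0.44 over these genes (n = 2 pools a group), and most differences were smaller. limma draws this error towards the variance of all features, so it does not measure the spread of each gene alone. For Cox7c, whose 4 arrays lay within 0.096 of each other, it was still 0.42. A small difference could therefore not pass, however close its pools were. Leaving out Meis1-CKO 1 left Meis1-CKO 2 alone in its group, so the features called in that fit rest on that pool alone. Without control 1 the median of the 85 genes was -0.01, without control 2 it was -0.19, and without Meis1-CKO 2, the array that stood apart, it was -0.12.

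The slide pairs differed in how many of the genes read lower. In slide pair 1, 72 of the 85 genes read lower in Meis1-CKO, with a median of -0.24, where 49.8% of all features read lower and their median was 0.00. In slide pair 2, 43 of the 85 read lower, with a median of -0.01, where 56.3% of all features did so with a median of -0.12. The contrast depended on the scaling: with quantile normalization the medians of the 85 genes were -0.13 in slide pair 1 (66 lower) and -0.19 in slide pair 2 (57 lower). Both pairs read lower for 37 genes (26.5% of all features) and higher for 7 (20.4% of all features). Sdhb was the only one of the 85 to differ by at least 2-fold in slide pair 1 (14.5% of all features), and Cox6a2, Cox7a2l and Dmac2 were the 3 to do so in slide pair 2 (28.4% of all features). None differed 2-fold in both. Across the 85 genes the 2 differences had a correlation of -0.01, given only as a description since these genes share arrays.

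**Figure D1:**
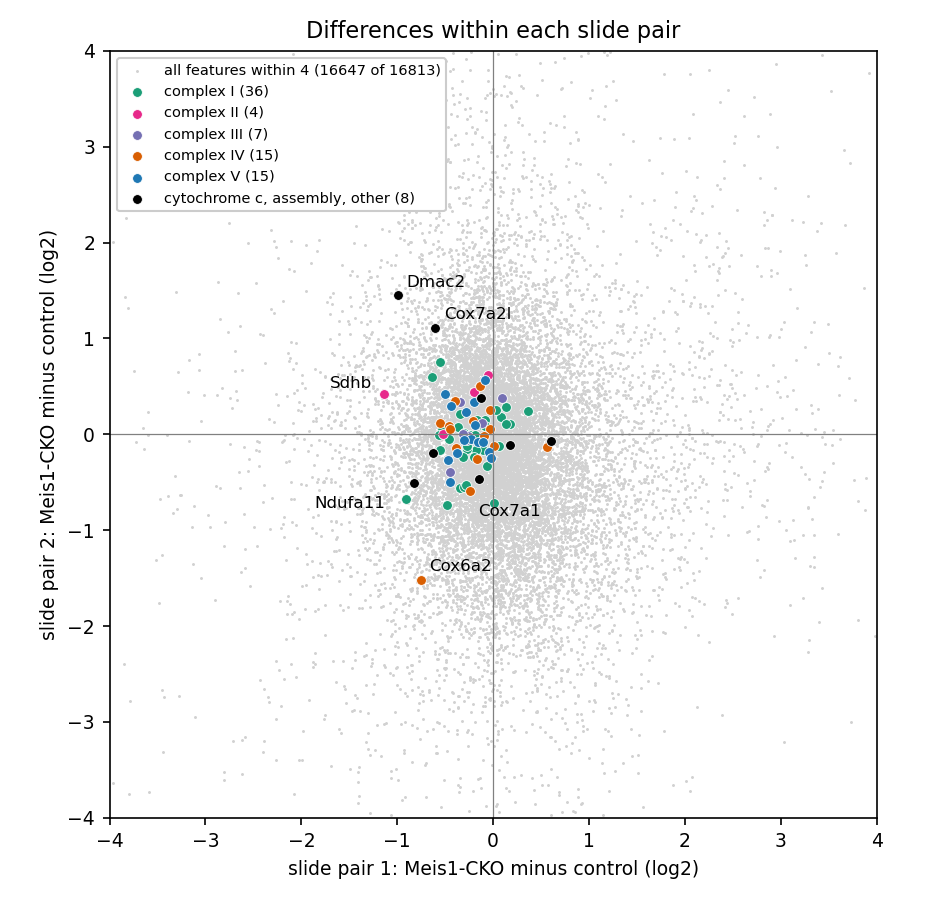
Log2 difference of Meis1-CKO minus control in slide pair 1 (x axis) and slide pair 2 (y axis), 1 point a gene, with the respiratory chain genes coloured by complex and all features within the plotted range in grey. Of the 85 coloured genes 72 lie left of the vertical zero line, while 43 lie below the horizontal one; Cox6a2, Ndufa11, Cox7a1, Sdhb, Cox7a2l and Dmac2 are named.

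Both Meis1-CKO pools read below both control pools for 25 of the 85 genes, where 14.4% of all features did so, and above both for 3 (Ndufa10, Ndufa9 and Ndufv3), where 11.1% of all features did so. Control 1 was the highest of the 4 arrays for 46 of the 85 genes and Meis1-CKO 1 the lowest for 34. The share of all features was not counted for these extremes. The controls also differed from each other: control 2 read below control 1 for 62 of the 85, with a median of -0.19. Over all 16813 features it did so for 7844, with a median of 0.06. Meis1-CKO 1 set against control 2 gave a median of -0.09, with 48 lower, where all features gave -0.04, with 8783 of 16813 lower.

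**Figure D2:**
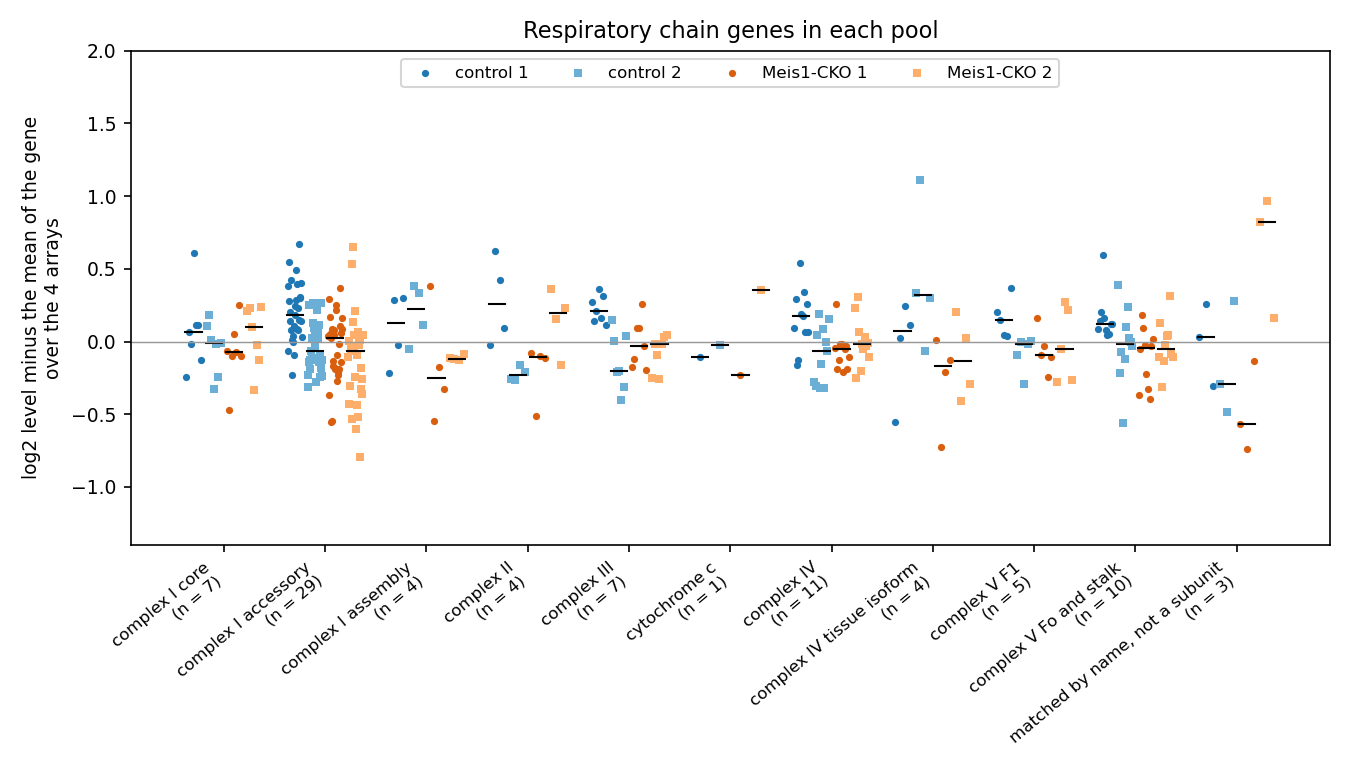
Log2 level of each tested gene minus its own mean over the 4 arrays (y axis), by role in the chain (x axis), with 1 point a gene, a colour and symbol for each pool, and a bar at the median of the role in that pool. By the medians, control 1 lies highest for complexes I accessory, II, III, IV and V. The medians of the complex IV tissue isoforms and of the complex I assembly factors lie higher in the controls than in the Meis1-CKO pools. Among these genes Cox4i2 and Ndufaf1 go the other way, with differences of 0.22 and 0.27.

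The genes as a group varied little over the 4 arrays. The range from the lowest to the highest array had a median of 0.525 on the log2 scale over the 85 genes against 1.09 over all features, and stayed under 1 for 77 of them (90.6%) against 45.0% of all features. Among features with a mean level above 0 the shares were 72 of 78 (92.3%) and 60.2%, and no closer match on brightness was made. Cytosolic ribosomal protein genes had a median range of 0.797 and proteasome subunit genes one of 0.536. Between the 2 controls the median size of the difference was 0.284 for the 85 genes. Within slide pair 1 it was 0.268 and within slide pair 2 it was 0.186, where all features gave 0.362 and 0.578. In both slide pairs the size was below that between the control pools, which lay on different slides. Between the 2 Meis1-CKO pools, also on different slides, it was 0.258, which slide pair 1 exceeded and slide pair 2 did not.

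**Figure D3:**
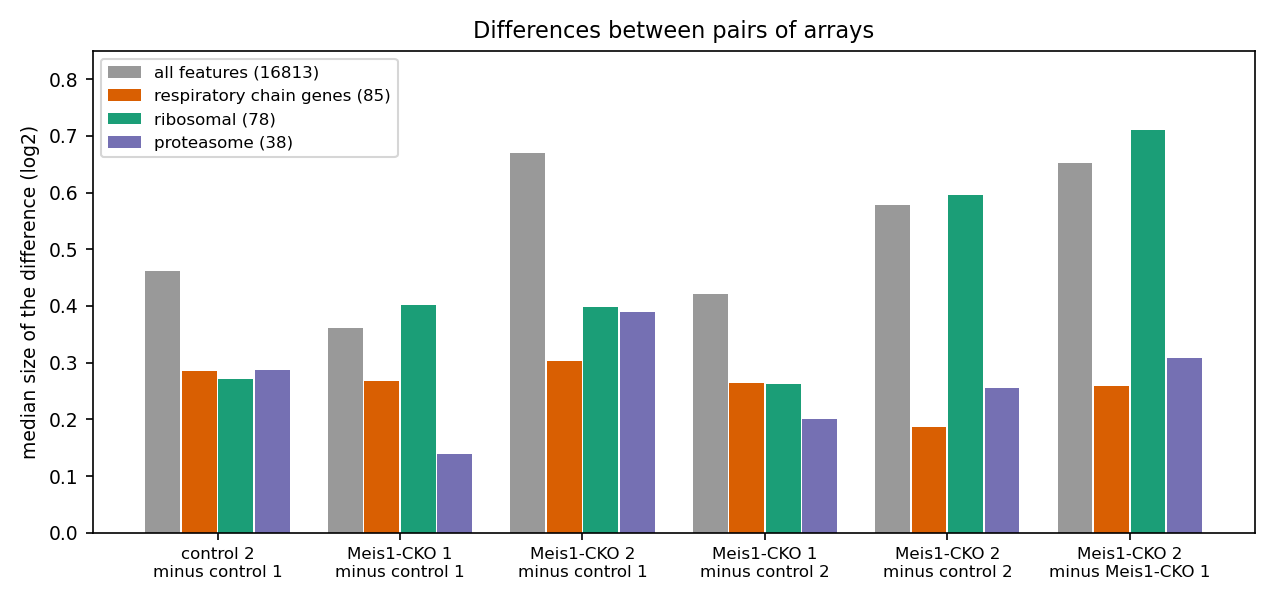
Median size of the log2 difference (y axis) for each of the 6 pairs of arrays (x axis), as bars for all features, respiratory chain genes, cytosolic ribosomal protein genes and proteasome subunit genes. The bars of the respiratory chain genes stay between 0.186 and 0.303, while those of all features reach 0.669 in pairs that hold Meis1-CKO 2.

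Promoters of these genes were searched for motifs of known regulators of the chain, and for the MEIS core and TATAAA. Whether any motif bears on the direction of the genes was not tested. RefSeq promoter windows (GRCm38.p6, 250 bases before to 50 after the start) matched 74 of the 89 genes and were searched on both strands. The motif GCATGCGC, bound by NRF1, was in 12 of the 74 (16.2%) and in 2.80% of all 27025 promoters. Its palindromic form, in which it overlaps its own reverse complement GCGCATGC, was in 6 (8.11%, against 0.977%) and is counted in the former too. The ETS motif CCGGAAG, bound by GABP, was in 16 (21.6%, against 9.12%), and the YY1 motif AAGATGGC was in 10 (13.5%, against 2.88%). The MEIS core TGACAG was in 18 (24.3%, against 19.3%), and TATAAA was in 7 (9.46%, against 14.2%). These are letter matches in a fixed window and not measured sites, and the search is a description with no test.

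The 250 bases before the start of 4 genes are printed with 1 motif in capitals: GCATGCGC in Cycs (cytochrome c, chr6:50566570-50566819, minus strand), the palindromic NRF1 motif in Ndufa11 (chr17:56717512-56717761, plus strand), the accessory subunit with the largest difference, and in Cox6a1 (chr5:115348959-115349208, minus strand), the widely used partner of Cox6a2, and CTGTCA, the reverse complement of TGACAG, in the muscle isoform Cox7a1 (chr7:30183921-30184170, plus strand).
Cycs: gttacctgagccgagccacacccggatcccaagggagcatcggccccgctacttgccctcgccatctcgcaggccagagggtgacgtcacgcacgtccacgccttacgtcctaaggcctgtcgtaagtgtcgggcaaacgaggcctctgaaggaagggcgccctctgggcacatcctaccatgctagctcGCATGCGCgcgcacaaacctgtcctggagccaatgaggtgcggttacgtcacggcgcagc
Ndufa11: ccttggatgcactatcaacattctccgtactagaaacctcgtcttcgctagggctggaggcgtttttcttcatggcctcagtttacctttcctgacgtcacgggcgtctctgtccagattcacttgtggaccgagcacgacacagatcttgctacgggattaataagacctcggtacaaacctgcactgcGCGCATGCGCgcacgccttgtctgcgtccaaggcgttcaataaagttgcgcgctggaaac
Cox6a1: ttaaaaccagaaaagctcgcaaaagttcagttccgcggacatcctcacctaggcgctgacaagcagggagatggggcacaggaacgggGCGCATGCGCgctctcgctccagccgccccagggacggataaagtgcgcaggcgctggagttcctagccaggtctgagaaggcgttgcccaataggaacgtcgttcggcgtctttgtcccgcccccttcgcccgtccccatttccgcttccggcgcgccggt
Cox7a1: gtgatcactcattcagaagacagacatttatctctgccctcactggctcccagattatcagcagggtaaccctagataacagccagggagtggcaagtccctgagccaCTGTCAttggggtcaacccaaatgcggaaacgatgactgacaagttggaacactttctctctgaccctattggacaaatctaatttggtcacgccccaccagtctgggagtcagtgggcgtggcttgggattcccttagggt
Ndufa11 and Cox6a1, which carry the same palindrome, differed by -0.79 and -0.06 between the groups. Genes with TGACAG differed in both directions, for example Cox7a1 and Ndufaf2 by -0.42 and -0.67, and Ndufaf1 and Atp5c1 by 0.27 and 0.24. The 18 genes with that motif were not counted by direction. Of all 85 tested genes 62 read lower, as did 9188 of 16813 features. Whether that motif bears on these differences was not tested.

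Complex I core subunits carry the flavin and iron-sulfur clusters. None of the 7 passed the test, and their median difference was 0.00, with 4 of 7 lower in slide pair 1 and 2 of 7 in slide pair 2. Ndufs1, the largest subunit, read 0.85, 1.20, 1.03 and 1.31, and Ndufv2 read 0.31, 0.42, 0.33 and 0.68. Both had their highest value in Meis1-CKO 2, the groups overlapped, and each differed by 0.14. Ndufv1, which holds the NADH site, read 2.70, 2.34, 2.83 and 2.45 and differed by 0.12. Its groups also overlapped. On the lower side, Ndufs7 read 1.28, 0.35, 0.72 and 0.34 and differed by -0.29, high in control 1 alone. Ndufs3 read 2.66, 2.69, 2.58 and 2.78 with overlapping groups. Among the 7 only Ndufs8 was without overlap, with a difference of -0.10.

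Accessory subunits surround that core and are needed for its assembly and stability. Of the 29, 24 read lower in slide pair 1 and 17 in slide pair 2, and 0 passed the test. The largest difference was that of Ndufa11, a membrane subunit at the contact between complexes I and III, measured on chromosome 17 (56857241 to 56857300, plus strand, mm9). It read 1.55 and 1.25 in the controls and 0.64 and 0.58 in Meis1-CKO, so the groups did not overlap. The difference was -0.79 (SE 0.43, limma adjusted p = 1.00), at -0.91 in slide pair 1 and -0.68 in slide pair 2, and -0.76 without Meis1-CKO 2. A second probe that overlaps the first read 1.22, 0.79, 0.17 and 0.02 and differed by -0.91. Ndufb5 read 2.16, 1.99, 1.68 and 1.25 and differed by -0.61 (SE 0.45, adjusted p = 1.00 by limma), lower in both Meis1-CKO pools, though by -0.39 without Meis1-CKO 2. At the other end, Ndufa10 read 0.91, 0.74, 1.27 and 0.98 and Ndufv3 read 0.71, 0.45, 0.84 and 0.73. Both were higher in both Meis1-CKO pools, by 0.30 and 0.21. Without Meis1-CKO 1 the difference of Ndufa10 was 0.15, and without control 2 that of Ndufv3 was 0.072. Ndufv3 had 3 tested probes, and those not used differed by 0.74 and 0.00. The latter was at 0.64 in slide pair 1 and -0.64 in slide pair 2, with overlapping groups. Ndufa1, an X-linked subunit, read 6.37, 5.67, 6.02 and 5.88, and Ndufb7 read 5.30, 5.09, 4.84 and 5.04. They were named for their signal, and their differences were -0.07 and -0.25.

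Ndufaf1 to Ndufaf4 encode factors that help to build complex I and are not part of the finished enzyme. Ndufaf2 read 2.58 and 2.68 in the controls and 1.75 and 2.18 in Meis1-CKO, a difference of -0.67 (SE 0.44, limma adjusted p = 1.00) that was -0.83 in slide pair 1 and -0.50 in slide pair 2. Ndufaf4 read 1.29, 1.11, 0.67 and 0.91 (difference -0.41), and Ndufaf3 read -2.01, -1.65, -2.16 and -2.11 (difference -0.31). In these 3 genes both Meis1-CKO pools lay below the lower control pool. Ndufaf1 read -1.22, -1.05, -0.62 and -1.12 and differed by 0.27, with overlapping groups. A further 28 tested assembly factors of complexes I to V had a median of -0.15 in slide pair 1 and 0.00 in slide pair 2, and 0 of them passed.

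Complex II, succinate dehydrogenase, is the link between the citric acid cycle and the chain, and all of its subunits are nuclear. On the probes used, its 4 genes differed in direction between the slides: 4 of 4 read lower in Meis1-CKO in slide pair 1 (median -0.37) and 0 of 4 in slide pair 2 (median 0.43). Some of these differences were very small, with Sdha at -0.05 in slide pair 1 and Sdhc at 0.0011 in slide pair 2. Sdhb, the iron-sulfur subunit, read 2.14, 1.26, 1.01 and 1.68, so control 1 was highest, Meis1-CKO 1 lowest, and the groups overlapped. Its difference was -0.36 (SE 0.54, limma adjusted p = 1.00), made of -1.13 in slide pair 1 and 0.42 in slide pair 2. Sdha, the flavoprotein, read 1.26, 1.02, 1.21 and 1.64 and differed by 0.28, and a second probe gave 0.41. The membrane anchors Sdhc (3.32, 2.73, 2.79 and 2.73) and Sdhd (3.94, 3.64, 3.73 and 4.08) differed by -0.26 and 0.12. In each of the 4 genes the probe used read higher in control 1 than in control 2.

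Complex III had 7 genes, with a median of -0.27 in slide pair 1 (6 lower) and 0.00 in slide pair 2 (3 lower). Uqcr11, a small subunit, read 3.12, 3.00, 2.67 and 2.60. Its groups did not overlap, and it differed by -0.42 (SE 0.43, limma adjusted p = 1.00), at -0.45 and -0.40 in the 2 pairs. The Rieske iron-sulfur protein gene Uqcrfs1 read 4.76, 4.20, 4.86 and 4.58, a difference of 0.24 with control 2 lowest. Uqcrc2, a core protein, read 4.53, 3.97, 4.26 and 3.91 and differed by -0.16. For Uqcrh (6.30, 5.67, 5.95 and 6.01) the group means were nearly equal, and for Uqcrq (5.62, 5.54, 5.31 and 5.54) the difference was -0.16. Cycs, cytochrome c, read 3.68, 3.76, 3.56 and 4.14 and differed by 0.13 (SE 0.46), at -0.13 in slide pair 1 and 0.38 in slide pair 2. Its other 2 probes differed by -0.13 and -0.29, so the sign depended on the probe.

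The 11 genes of complex IV that most tissues use had a median of -0.17 in slide pair 1 (10 lower) and 0.06 in slide pair 2 (4 lower). Cox4i1, the widely used form of subunit 4, read 6.21, 5.85, 6.08 and 6.35, and Cox5b read 5.80, 6.01, 5.77 and 6.26. Both were highest in Meis1-CKO 2, and they differed by 0.19 and 0.11. Without Meis1-CKO 2 the differences were 0.046 and -0.13, and without control 2 that of Cox4i1 was 0.0027. Cox7a2, the widely used partner of Cox7a1, read 4.74, 4.65, 4.36 and 4.51, lower in both Meis1-CKO pools, and differed by -0.26. Cox6b1 read 2.20, 1.34, 1.64 and 1.46, with control 1 alone high, and differed by -0.22. Cox6a1 read 5.71, 6.02, 5.71 and 5.91. Ndufa4, named for complex I but a subunit of complex IV, read 5.79, 5.88, 5.62 and 5.62 and differed by -0.22.

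Among the tested isoforms used in particular tissues, the muscle forms Cox6a2 and Cox7a1 had the largest differences. Cox6a2, the heart and skeletal muscle form of subunit 6a, was measured on chromosome 7 (135349160 to 135349219, minus strand, mm9). It read -2.28 and -1.20 in the controls and -3.04 and -2.72 in Meis1-CKO, well above background on all 4 arrays and without overlap, but with control 2 standing above the other three. The difference of -1.14 (SE 0.54, limma adjusted p = 1.00, unadjusted p = 0.085) was the largest of the 85. It was -0.76 in slide pair 1, -1.52 in slide pair 2, -0.60 without control 2, -1.30 without Meis1-CKO 2, and -0.40 with another background correction. Its processed signals were 19.2, 59.6, 13.3 and 23.2, where the 75th percentile of the arrays lay between 93.2 and 152. Cox7a1, the muscle form of subunit 7a, read -1.02, -0.83, -1.26 and -1.42, again without overlap. Its difference was -0.42 (SE 0.43, adjusted p = 1.00 by limma), at -0.24 and -0.59 in the 2 pairs and -0.23 with the other background correction. Their widely used partners Cox6a1 and Cox7a2 differed by -0.06 and -0.26, and the difference between an isoform and its partner was not tested.

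Markers of muscle-like TECs, rare medullary cells that express muscle genes, were read beside these isoforms. Of 8 markers 7 were tested, and all 7 were well above background on all 4 arrays. In slide pair 1 5 of the 7 read lower in Meis1-CKO (median -0.31), and in slide pair 2 6 of 7 (median -1.82). Des, the muscle intermediate filament protein desmin, differed by -1.88 and -2.43, the cardiac actin gene Actc1 by -1.36 and -1.82, and the skeletal actin gene Acta1 by -1.18 and -1.26. Myl1 and Myog also read lower in both pairs. The troponin gene Tnni2 read higher in both, at 0.27 and 3.75, and the troponin gene Tnnt3 was at 1.17 and -0.22. The summed level of the 7 was 3.04 and 3.53 in the controls and 2.38 and 4.66 in Meis1-CKO, where Tnni2 took the largest part of the last value. None of the 7 passed the test, and the part of these cells in the readings of Cox6a2 and Cox7a1 was not tested.

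Other tissue isoforms read differently. Cox6b2, the testis form of subunit 6b, read 0.38, 0.07, -0.07 and 0.16, with overlapping groups and a difference of -0.19. Cox4i2, a form used in lung, read -3.81, -2.92, -3.25 and -3.05 and differed by 0.22, but control 1 was not well above background. Cox8b, the muscle form of subunit 8, read -2.20, -3.67, -2.32 and -3.89, close to background, and was well above it on 2 of 4 arrays. Both arrays of slide 1 read above both of slide 2, and it was not tested. Cox7b2 and Cox8c, forms of the testis, were well above background on 0 of 4 arrays.

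**Figure D4:**
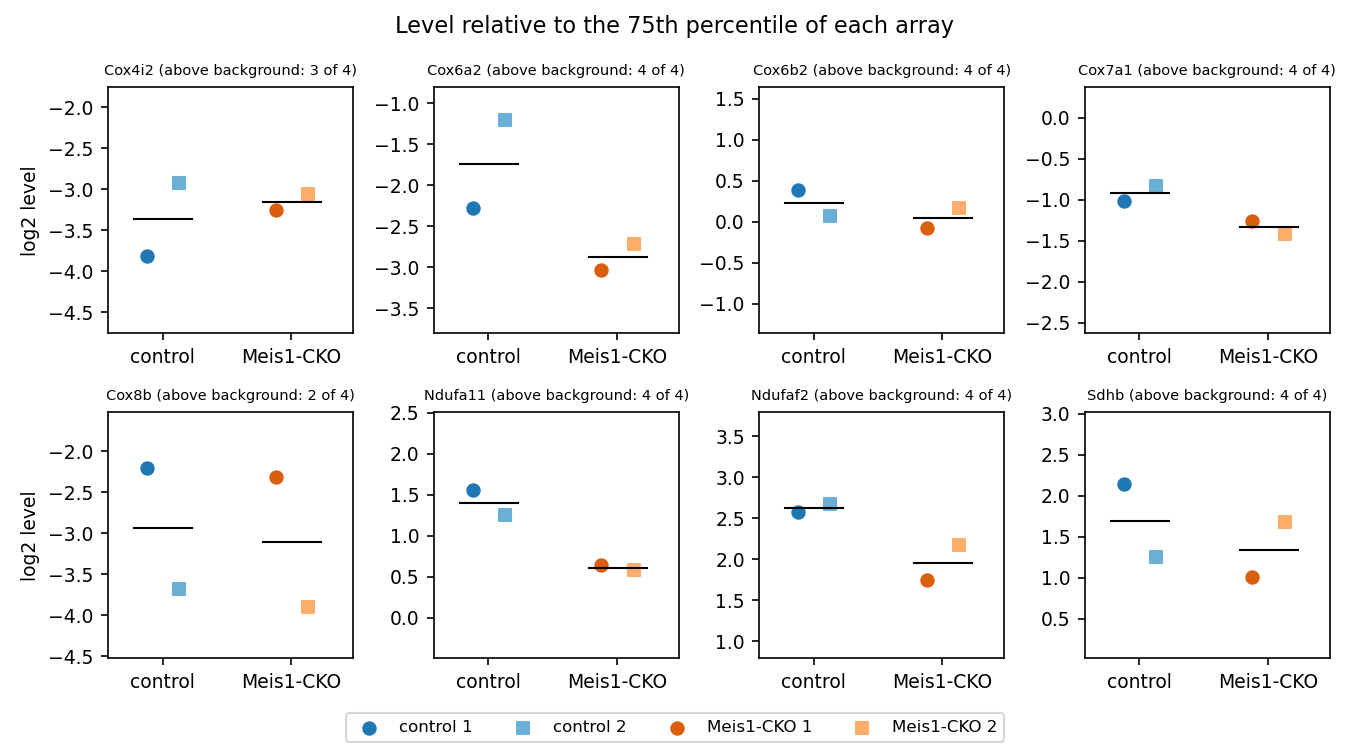
Log2 level relative to the 75th percentile of each array (y axis) in the 2 control and 2 Meis1-CKO pools (x axis) for 5 tissue isoforms of complex IV and for Ndufa11, Ndufaf2 and Sdhb, with a bar at each group's mean. Each panel has its own range of the same height; the groups do not overlap for Cox6a2, Cox7a1, Ndufa11 and Ndufaf2, and they overlap for Sdhb, Cox6b2, Cox4i2 and Cox8b.

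Complex V, ATP synthase, consists of the catalytic F1 head and the Fo rotor with its stalk. All 5 F1 genes and all 10 Fo and stalk genes read lower in Meis1-CKO in slide pair 1 (medians -0.23 and -0.25), and 3 of 5 and 6 of 10 in slide pair 2 (medians -0.05 and -0.07). The catalytic beta subunit gene Atp5b read 6.64, 6.49, 6.41 and 6.45 and differed by -0.14, and the alpha subunit gene Atp5a1 read 6.74, 6.44, 6.70 and 6.25 and differed by -0.11. Atp5b was lower in both Meis1-CKO pools on this probe, and Atp5a1 was lower on both arrays of slide 2 than on those of slide 1. The other tested probes of Atp5b differed by -0.14 and 0.14. The latter was dimmer and higher in both slide pairs, by 0.24 and 0.05. Atp5e, the epsilon subunit, read 6.42, 6.06, 5.95 and 5.80 and differed by -0.37, and Atp5c1, the gamma subunit of the central shaft, read 3.69, 3.35, 3.61 and 3.92 and differed by 0.24. Atp5g1, Atp5g2 and Atp5g3 encode the same mature subunit of the rotor ring. They differed by -0.47 (0.33, 0.63, -0.12 and 0.14), 0.07 (4.66, 4.31, 4.47 and 4.64) and -0.13 (5.46, 5.18, 5.43 and 4.94), and Atp5g1 alone was without overlap. Atp5h, a stalk subunit, read 6.26, 5.10, 5.75 and 5.52, so its controls differed more than its groups. Atp5k read 2.34, 2.53, 1.96 and 2.33 and differed by -0.29.

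The genes that match only by name are described apart from the subunits. Cox7a2l, a factor that joins complexes III and IV into supercomplexes, read 2.69, 2.37, 2.09 and 3.48, at -0.60 in slide pair 1 and 1.11 in slide pair 2. Dmac2, an assembly factor of complex I, read -1.75, -2.50, -2.75 and -1.05, at -0.99 and 1.45, and its other probe went the opposite way in slide pair 1 (2.44). Emc8, a subunit of an endoplasmic reticulum membrane complex, differed by 0.03. Dmac2l was well above background on 2 of 4 arrays and was not tested. Without the 4 assembly factors and these genes, the medians of the remaining 78 subunit genes were -0.24 and 0.00 in the 2 pairs.

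Several genes had more than 1 probe. In 26 genes with more than 1 tested probe, the gap between the differences of the probes had a median of 0.146, and in 12 of them the signs of the probes disagreed. It exceeded 1 for Ndufb2, whose probes differed by -0.35 and -1.56, and for Ndufab1, a carrier protein also used in lipoic acid synthesis, with -0.84 to 0.27. The probe used for Ndufb2 read 1.44, 1.31, 1.45 and 0.60, and the other read -2.96, -1.46, -3.30 and -4.25. Both were lowest in Meis1-CKO 2, and the dimmer probe was well above background on 3 of 4 arrays. The probe used for Ndufab1 read 1.96, 1.95, 1.90 and 1.62.

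Subunits encoded in the mitochondrial genome, which the name rule does not take, had probes for 4 genes. ND4 of complex I read 8.49, 7.38, 7.94 and 6.95, CYTB of complex III 7.50, 6.26, 6.99 and 5.93, COX2 of complex IV 8.52, 7.43, 8.03 and 7.41, and ATP6 of complex V 7.71, 6.14, 7.12 and 6.12. In each, both arrays of slide 1 read above both arrays of slide 2, and control 2 minus control 1 was -1.56 to -1.09. Meis1-CKO minus control was -0.59 to -0.48 in slide pair 1 and -0.43 to -0.01 in slide pair 2. None passed the test, and the genotypes overlapped for all 4.

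Genes that regulate or serve the chain were described from lists, none of whose members passed the test. Among 14 regulators of mitochondrial biogenesis 6 read lower in slide pair 1 and 10 in slide pair 2. Tfb1m, which methylates mitochondrial ribosomal RNA, read -1.87, -1.69, -3.46 and -2.63, and Ppargc1b, a transcriptional coactivator, read -0.96, -2.05, -2.23 and -2.88. Both were lower in both Meis1-CKO pools, by -1.26 (SE 0.49) and -1.05 (SE 0.57), each with a limma adjusted p = 1.00. Tfam, which packages mitochondrial DNA, differed by -0.21, and the genes of the factors whose motifs were searched, Nrf1, Gabpa and Yy1, by -0.19, 0.50 and 0.25.

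Of 77 mitochondrial ribosomal protein genes 57 read lower in slide pair 1 (median -0.20) and 45 in slide pair 2 (median -0.06). Mrpl37 differed by -1.16 and Mrps2 by -0.75, both without overlap of the groups. The 23 genes of the citric acid cycle and pyruvate dehydrogenase had medians of 0.00 and -0.23. Among them Pdk4, a kinase that inhibits pyruvate dehydrogenase, read 0.36, -0.59, 1.70 and 1.69, higher in both Meis1-CKO pools by 1.81 (SE 0.51, limma adjusted p = 1.00), and Idh3a differed by -0.52. Of 17 transport genes, the uncoupling protein gene Ucp2 read 3.12, 2.31, 2.76 and 5.34 and the import channel gene Tomm40 read 0.15, -0.09, 0.09 and -2.56, so both stood out in Meis1-CKO 2 alone. Among assembly factors, Foxred1 differed by 1.24, with overlapping groups and 3 of 4 arrays well above background, and Sdhaf2 by 0.82 without overlap. Cyc1, cytochrome c1 of complex III, differed by -0.37 and Atpaf2, an assembly factor of the F1 part, by -0.46.

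Compared with other large gene sets, the chain's median lay between those of the ribosome and the proteasome in slide pair 1. In slide pair 2 it lay below both, with each array scaled to its 75th percentile. With quantile normalization the chain's own median in slide pair 2 was -0.19, and the other lists were not recomputed. Cytosolic ribosomal protein genes had medians of -0.40 (76 of 78 lower) in slide pair 1 and 0.60 (6 of 78 lower) in slide pair 2. Proteasome subunit genes had medians of -0.10 and 0.08, and 17 glycolysis genes had -0.13 and -0.11. The proteasome list includes Psmb11, read above as a TEC marker, at -0.60 in slide pair 1 and -3.33 in slide pair 2. These medians describe the lists, and no test between lists was made.

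**Figure D5:**
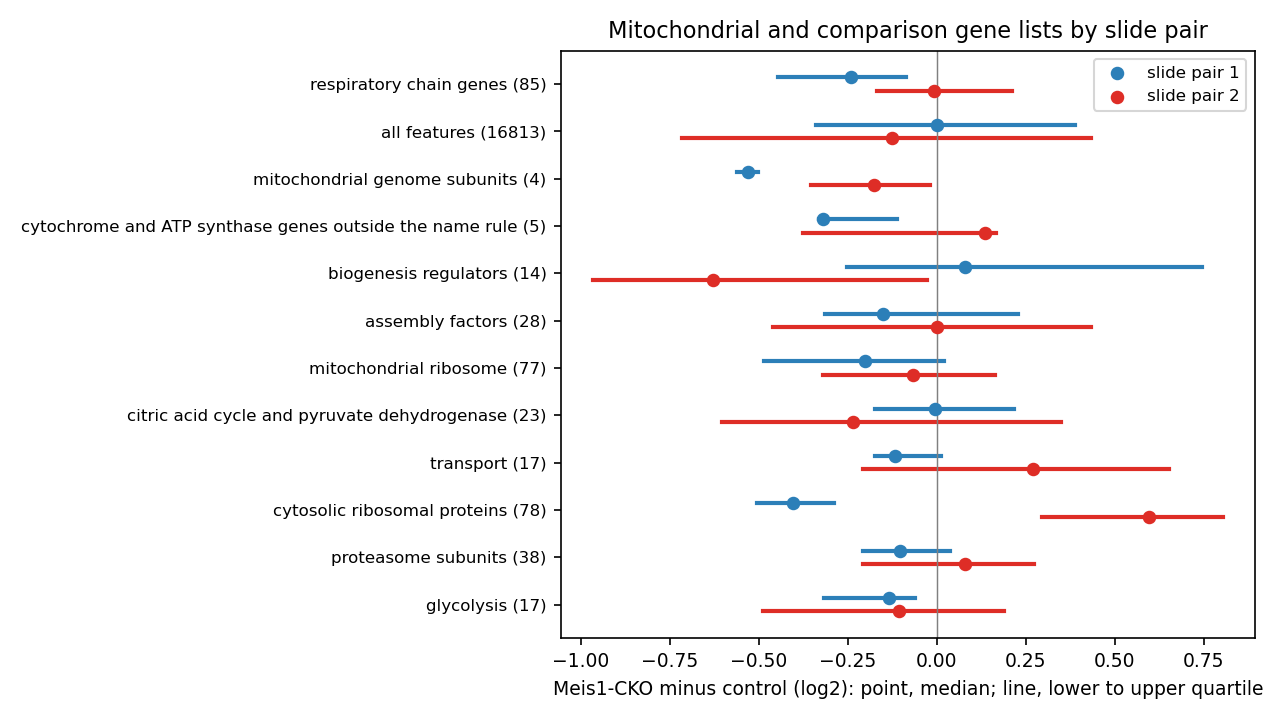
Median log2 difference of Meis1-CKO minus control (x axis, points) with the lower to upper quartile (lines) for each gene list (y axis, number of tested genes in parentheses), in blue for slide pair 1 and red for slide pair 2. The respiratory chain genes lie at -0.24 and -0.01 (-0.13 and -0.19 with quantile normalization, not drawn), while the cytosolic ribosomal protein genes lie at -0.40 and 0.60 on opposite sides of zero.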

How the data were processed

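RNA of 4 pools of sorted TECs was read on Agilent single-colour arrays. The deposited scanner files hold linear spot intensity values that the authors' software, Agilent Feature Extraction 9.5.3.1 (per the submitters' processing notes), had background-subtracted within each array, per the file headers, with no scaling between arrays. The deposited value table holds log2 values. Over 20829 probes its differences between arrays matched those of the scaled scanner signals (slope 1.00, correlation 1.00). Each probe was centred on its median, so direction and scale were settled from the values.

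Of 45018 spots, 1639 control spots and 63 to 78 outlier spots an array were left out and spots of 1 probe averaged. The log2 processed signal minus the array's 75th percentile was fitted with limma 3.58.1 (lmFit and eBayes, R 4.3.3) over all 4 arrays without a block, with Benjamini-Hochberg adjustment over 16813 features (2 residual degrees of freedom, 5.53 after moderation). A probe was tested where the 2 arrays of at least 1 group were well above background, and the probe with the highest mean stood for its gene. The test was checked on simulated data. The labels give 2 independent experiments but do not say which pool came from which. The p-values rest on the spread between pools, drawn towards that of all features by the moderation. Without a block, differences between slides count as part of that spread. The number of arrays limits the precision.

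Symbols were updated by RefSeq accession for 26690 probes and by an older symbol for 952. Probe positions are on mm9, promoters on GRCm38.p6. Named genes are all tissue isoforms, complex II and cytochrome c. In each other role the 2 highest in signal and the 2 with the largest difference in each direction were added, as were genes whose probes differ by over 1 and the 2 with the smallest p of each pathway list. The result of 1 gene that this rule names is not reported here. Further genes were chosen after their values were seen. The members and all lists were chosen with earlier results of these data known. Alternatives were the background correction, the scaling, the filter on dim probes, the rule for several probes, the value table, the replicate block and leaving out each pool.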

Additional observations from a re-analysis of the deposited data

How the results depend on the processing

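No respiratory chain gene was called under any of the 13 alternatives run, and over all features the count stayed at 0 except without Meis1-CKO 1, so leaving out each pool gave 0 to 322. The median over the 85 genes lay between -0.19 and -0.01 when each pool was left out. In slide pair 2 it was -0.19 with quantile normalization. With the replicate block (number and slide coincide) 0 features and 0 respiratory chain genes were called and 664 features had an unadjusted p under 0.05. Same-numbered pools had deviations that correlated at 0.13 over all features, and with 2 pairs the labels do not show that the numbers pair the pools. The block changed no call. Without a filter on dim probes 1 respiratory chain gene had an unadjusted p under 0.05.

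Of the 43 named genes tested, 22 kept their sign under every alternative and 21 did not. With normexp background correction the differences of Atp5h, Cox4i2 and Uqcrh were 0.021, -0.027 and 0.014. With quantile normalization those of Atp5g2, Ndufs3 and Uqcrh were -0.025, -0.050 and 0.018. Cyclic loess gave 0.0072 for Uqcrh, and the 75th percentile over detected probes gave -0.0081 for Ndufs3. The mean of all tested probes gave -0.010 for Atp5g2, 0.0020 for Atp5h, -0.10 for Cycs and 0.052 for Uqcrh. The causes were not tested. Leaving out each pool, with the lone pool taken to vary like the others, gave ranges that cross zero for Atp5a1 (-0.33 to 0.11), Atp5g2 (-0.11 to 0.25), Atp5g3 (-0.38 to 0.12), Atp5h (-0.62 to 0.54), Cox4i2 (-0.23 to 0.66), Cox5b (-0.13 to 0.36), Cox6b1 (-0.65 to 0.21), Cycs (-0.17 to 0.42), Ndufa1 (-0.42 to 0.28), Ndufb2 (-0.78 to 0.079), Ndufs1 (-0.033 to 0.32), Ndufs3 (-0.098 to 0.11), Ndufs7 (-0.75 to 0.18), Ndufv1 (-0.067 to 0.32), Ndufv2 (-0.031 to 0.31), Sdhb (-0.80 to 0.086), Sdhc (-0.56 to 0.030), Sdhd (-0.054 to 0.29), Uqcrc2 (-0.45 to 0.12), Uqcrfs1 (-0.043 to 0.52) and Uqcrh (-0.31 to 0.31). Without crossing zero, the difference moved by over 1.5 times when a pool was left out for Atp5b (-0.22 to -0.066), Atp5c1 (0.073 to 0.41), Atp5e (-0.55 to -0.19), Atp5k (-0.47 to -0.10), Cox4i1 (0.0027 to 0.37), Cox6a2 (-1.68 to -0.60), Cox6b2 (-0.34 to -0.030), Ndufa10 (0.15 to 0.44), Ndufab1 (-0.34 to -0.053), Ndufaf1 (0.017 to 0.51), Ndufb5 (-0.82 to -0.39), Ndufb7 (-0.36 to -0.15), Ndufv3 (0.072 to 0.34), Sdha (0.064 to 0.50) and Uqcrq (-0.27 to -0.036). With all 4 arrays in the fit, the lowest limma adjusted p of a named gene was 0.698, without a filter on dim probes. With 2 arrays a group, the fit could not call a difference as large as its typical standard error of 0.44. That error is drawn towards the variance of all features. Levels near background, such as those of Cox4i2, rest on dim signals.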
